A study of Mus musculus with 130 samples.

Results

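Glo1 and Btbd9 are neighbouring genes on mouse chromosome 17, and their liver RNA was followed across diets, inbred strains and families of recombinant strains. They were chosen by symbol, matched to the identifiers ENSMUSG00000024026 (Glo1) and ENSMUSG00000062202 (Btbd9), and are 2 of the 35274 genes listed in the diet table and 2 of the 35711 listed in the strain table. Glo1 encodes glyoxalase 1, which uses glutathione to detoxify methylglyoxal, a reactive by-product of glycolysis. Hagh encodes glyoxalase 2, the enzyme of the next step, which releases lactate and returns the glutathione. Btbd9 encodes a BTB-domain protein of the kind that brings substrates to the CUL3 ubiquitin ligase, and its human counterpart lies at a locus associated with restless legs syndrome, a condition tied to brain iron. A tandem duplication that spans Glo1 and flanking sequence is known to be carried by some inbred mouse strains and not by others, which is why the pair is treated as a copy number locus. DNA copy number was not measured here, so the values below are RNA levels only.

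The study sequenced liver RNA of 130 male mice. In the diet study, C57BL/6J mice received chow, a diet with 50 ppm iron, a diet with 500 ppm iron, 2% carbonyl iron, or 2% carbonyl iron with cellulose as the fiber source, with 3 mice in each of the 5 groups. In the strain panel, every mouse had 4 weeks of chow followed by 6 weeks of 2% carbonyl iron, so the panel holds no low-iron control. Its 115 libraries came from 114 strains: 56 BXD strains (C57BL/6J by DBA/2J), 20 AXB/BXA strains (C57BL/6J and A/J), 4 BXH strains (C57BL/6J by C3H/HeJ), 3 CXB strains (BALB/cByJ by C57BL/6J) and 31 other inbred strains, the parents among them.

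Each strain was 1 mouse except 129X1/SvJ with 2, so a strain's value carries no replicate error of its own. Estimated counts summed to about 10420700 to 20357200 per library in the diet study and 9407880 to 20572900 in the panel. All libraries are labelled male, but the summed level of 4 Y-linked genes was 3.94 CPM (count per 1000000 library counts after TMM scaling) in the library labelled BXD65/RwwJ and 118 to 328 CPM in the other 114 panel libraries. That library's Glo1 level was 157 CPM, and results that use the BXD strains were also computed without it. The hepatocyte markers were abundant in every diet group, with summed levels between 71744 and 101726 CPM over the 15 mice. In whole liver, fewer cells of a type and less RNA per cell cannot be told apart.

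In the GENCODE M21 annotation of GRCm38, Glo1 occupies chr17:30584936-30626871 and Btbd9 chr17:30215524-30576488, both on the minus strand and 8447 bases apart. A processed pseudogene of Glo1, Gm13443, lies on another chromosome at chr2:35340409-35340963 on the plus strand, and RefSeq lists Gm13443 as a synonym of Glo1-ps. Its 555 bases run from start to stop codon and match the Glo1 coding sequence except at 3 bases, an identity of 99.5%. The stretch around the first of the differences is shown because the 3 bases are the only coding bases by which a read can be told to come from one gene or the other. Positions are counted from 1 at the A of the Glo1 start codon, the Glo1 base is given first, and the capital marks the base that differs. The substitution G9A lies in exon 1 of Glo1:
Glo1: atggcagaGccacagccggcgtcc
Gm13443: atggcagaAccacagccggcgtcc
In the reference, 454 of the 525 stretches of 31 bases in the coding sequence are the same in both genes, so the division of reads between them rests on few positions and on untranslated sequence. Reads of either gene can therefore be counted under the other, and the Gm13443 values given below do not bound the uncertainty of Glo1. A further annotated gene, AC174471.1, shares 1256 bases with Btbd9 on the same strand, and AC165962.3 shares 418 bases with Glo1 on the opposite strand. Neither is listed in the tables, and whether the counting used strand is not given in the sources used here.

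Glo1 RNA was lower in C57BL/6J mice on 2% carbonyl iron than in those on less iron, while no difference was called for Btbd9. Glo1 measured 389, 309 and 325.6 CPM in the 3 mice on 50 ppm iron, 337, 263 and 352 CPM on 500 ppm, and 306, 330 and 316.9 CPM on chow. On 2% carbonyl iron it measured 224, 220 and 201 CPM, and on 2% carbonyl iron with cellulose 195, 176 and 203 CPM. The 6 mice on 2% iron all lay below the 9 mice on the other diets, and the mean of the first was 0.624 times that of the second. Of all 13560 genes tested in the diet study, 13.3% likewise showed no overlap between those 6 and those 9 mice. Group means of Glo1 were 341 ± 42.4 (SD, n = 3) on 50 ppm, 317.3 ± 47.4 on 500 ppm, 318 ± 12.02 on chow, 215 ± 12.2 on 2% iron and 191 ± 13.6 CPM on 2% iron with cellulose. On the TPM scale, which also divides by transcript length, the same means were 229, 215, 203, 149 and 147.

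The fall of Glo1 passed the test against each lower-iron diet to which it was compared. Tests were edgeR's quasi-likelihood tests with Benjamini-Hochberg adjustment over all genes, called at an adjusted p below 0.05. Between 2% iron and 50 ppm, Glo1 fell by 0.67 on the log2 scale (SE 0.12, adjusted p = 0.00266), a ratio of 0.630 with a 95% interval of 0.537 to 0.738, and 15.7% of all genes were called in that comparison. Against 500 ppm it fell by 0.56 (SE 0.12, adjusted p = 0.00812), where 11.3% of genes were called. Against chow the change was -0.56 (SE 0.12, adjusted p = 0.00390), where 22.8% were called. With cellulose, the 2% diet was 0.83 log2 units below 50 ppm (log2 change -0.83, adjusted p = 3.30e-04), where 29.7% were called. These comparisons share their 2% iron or 50 ppm mice, so they are not independent of one another.

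Among the remaining diet pairs Glo1 was not called. The log2 change was -0.11 for 500 ppm against 50 ppm (adjusted p = 1), -0.10 for chow against 50 ppm (adjusted p = 0.835) and -0.17 for cellulose against the plain 2% diet (adjusted p = 0.585), all by edgeR. The background was low in these pairs. Between 500 and 50 ppm, edgeR called 0 of the 13560 genes (0%), with 428 at an unadjusted p below 0.05, while DESeq2 called 0 and limma 0 or 3 depending on the pseudocount. Chow against 50 ppm gave 0.391% of genes, and cellulose against plain 2% iron gave 0.0811%. Leaving out 1 library at a time moved these counts from 53 genes to between 4 and 63 and from 11 genes to between 0 and 212. The labels do not say whether mice shared cages or litters. The p-values take the mice of a diet as independent, which cannot be checked here.

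Gm13443 held few of the reads in these C57BL/6J mice. It was at 0, 0.746 and 1.24 CPM on chow, 0, 2.61 and 4.89 CPM on 50 ppm, 0 CPM in all 3 mice on 500 ppm, 2.65, 9.87 and 0.0853 CPM on 2% iron, and 1.85, 0.441 and 0 CPM with cellulose. The highest of these, 9.87 CPM in 1 mouse on 2% iron, was small beside the 220 CPM of Glo1 in the same mouse.

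Btbd9 was far less abundant than Glo1 and its diet groups overlapped. It measured 14.4, 14.8 and 16.7 CPM on chow, 15.4, 15.4 and 14.8 CPM on 50 ppm, and 16.2, 16.3 and 17.2 CPM on 500 ppm. On 2% iron the values were 11.7, 14.9 and 16.3 CPM, and with cellulose 17.1, 15.3 and 13.9 CPM. The mouse at 11.7 CPM was the lowest of all 15, and the other 5 mice on 2% iron lay within or next to the range of the lower-iron mice. The log2 change from 50 ppm to 2% iron was -0.09 with a 95% interval of -0.32 to 0.15 (edgeR, adjusted p = 0.672). Over all 7 diet comparisons the Btbd9 changes ran from -0.21 to 0.12, and none was called. As TPM, the Btbd9 means lay between 2.13 and 2.48, against 147 to 229 for Glo1.

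**Figure D1:**
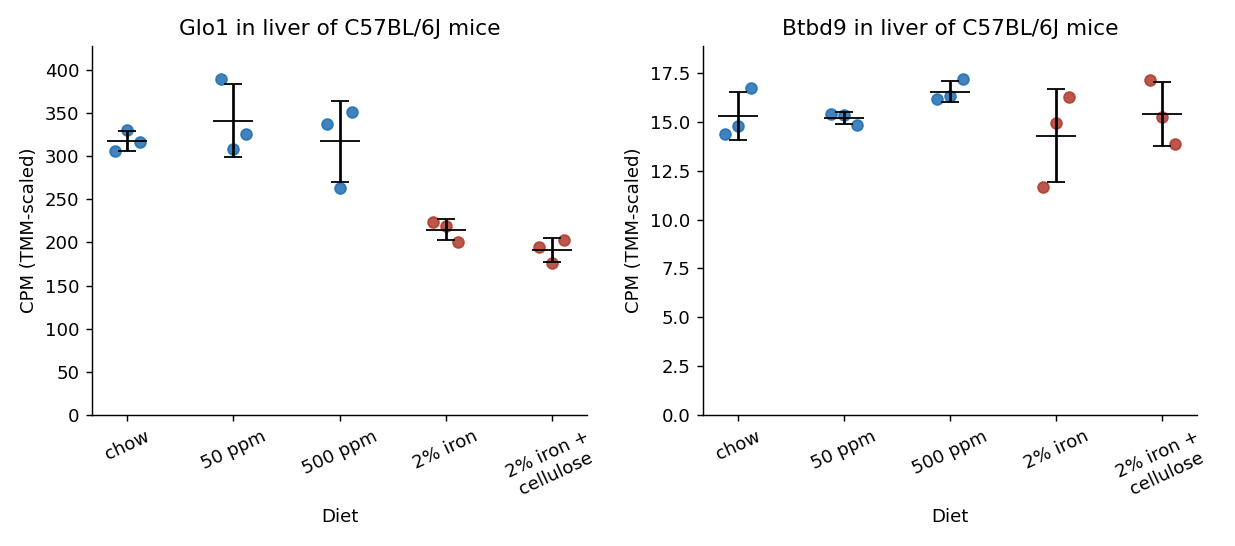
Glo1 and Btbd9 levels in CPM (vertical axes, linear) in each of the 15 C57BL/6J mice by diet, with points for mice and lines for the group mean and SD. The 6 mice on 2% iron lie between 176 and 224 CPM for Glo1 and the other 9 between 263 and 389 CPM, while the Btbd9 groups overlap.

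Other enzymes that handle methylglyoxal and related aldehydes moved in both directions on 2% iron. Of the 23 listed genes other than Glo1, 21 were tested, and 2 rose and 3 fell between 2% iron and 50 ppm, with a median change of -0.12 beside 0.01 over all genes. The 5 called of 21 stand beside 15.7% called among all genes. Hagh fell by 0.71 (SE 0.13, adjusted p = 0.00376 by edgeR), from a mean of 159 to 97.2 CPM, a change of similar size to that of Glo1. Akr7a5, an aldo-keto reductase, fell by 0.53 (adjusted p = 0.00944) and Aldh9a1, an aldehyde dehydrogenase, by 0.38 (adjusted p = 0.0172), a call lost without mouse 1 or 2 on 50 ppm or mouse 1 or 3 on 2% iron (adjusted p of up to 0.0697). The aldose reductase Akr1b3 rose by 1.53 (adjusted p = 7.62e-04), from 6.41 to 18.5 CPM, and the related Akr1b8 by 3.35 (adjusted p = 0.00196), from 2.12 to 21.7 CPM. Against chow, 2 of the 21 rose and 7 fell, beside 22.8% called among all genes. With cellulose, 6 rose and 5 fell against 50 ppm, with a median of 0.22 and 29.7% of all genes called.

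The list drawn up around Btbd9, with CUL3 ligase and cellular iron genes, gave 3 higher and 1 lower of 13 tested between 2% iron and 50 ppm, with a median of -0.03, where 15.7% of all genes were called. The iron storage gene Ftl1 rose by 1.32 (adjusted p = 8.49e-05), from 1932 to 4827 CPM. The iron exporter gene Slc40a1 rose by 1.54 (adjusted p = 1.26e-04), and the transferrin gene Trf rose by 0.69 (adjusted p = 0.00725). Aco1, which encodes an iron regulatory protein, fell by 0.42 (adjusted p = 0.00682). Cul3 itself changed by -0.05 (adjusted p = 0.638), and the 4 called members were iron genes. With cellulose against 50 ppm, 4 of the 13 rose and 4 fell, where 29.7% of all genes were called, and Cul3 was among those that fell, with a log2 change of -0.17 (adjusted p = 0.0441 by edgeR). Of 5 genes named for human restless legs loci, 3 were tested, with log2 changes of 0.48 for Meis1 (adjusted p = 0.204), -0.17 for Map2k5 (adjusted p = 0.429) and -0.41 for Ptprd (adjusted p = 0.0855) between 2% iron and 50 ppm. Ptprd did pass against chow, at -0.56 (adjusted p = 0.0164 by edgeR), and with cellulose against 50 ppm, at -0.58 (adjusted p = 0.0114).

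Cell type markers moved with the diets as well. All 6 Kupffer cell markers rose between 2% iron and 50 ppm, where 15.7% of all genes were called. Their summed level was 472 to 491 CPM on 2% iron and 446 to 689 CPM with cellulose, against 107 to 201.9 CPM in the other groups. Summed erythroid markers were 323 to 478 CPM on 2% iron and 166 to 437 CPM with cellulose, against 63.3 to 149 CPM. Between 2% iron and 50 ppm, 5 of these 6 markers rose and 1 fell. The 8 hepatocyte markers summed to 90585 to 96099 CPM on 2% iron, 76389 to 87611 CPM on 50 ppm and 85064 to 101726 CPM on chow. Between 2% iron and 50 ppm, 2 of the 8 fell and the other 6 did not pass, beside the same 15.7% of all genes. The exocrine pancreas markers summed to at most 12.7 CPM, with Cpa1, Pnlip and Prss2 at 0 in every diet mouse. The part of these cells in the Glo1 difference was not tested.

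Across the 114 strains on 2% iron, Glo1 varied over a wider range than Btbd9. Glo1 ran from 85.7 CPM in BTBR T<+> tf/J to 753 CPM in BXD18/TyJ, with a median of 239 CPM and an 8.79-fold span. Btbd9 ran from 9.36 CPM in NZB/BlNJ to 33.5 CPM in BXD18/TyJ, with a median of 19.5 CPM and a 3.58-fold span. The same recombinant strain, BXD18/TyJ, was thus highest for both genes. On the per-length scale, the Glo1 median was 170 TPM and the Btbd9 median 3.06 TPM. The SD of Glo1 over strains was 0.66 on the log2 scale, against 0.14 between mice of 1 diet in the C57BL/6J study, a ratio of 4.61 that exceeded that of 98.8% of 13410 genes. For Btbd9 the same ratio was 2.12, above 74.8% of genes, where the median gene had 1.66. These ratios set tables that were normalised separately side by side, and the strain value includes the spread between mice. By the SD over strains alone, Glo1 exceeded 82.7% of the 13410 genes and Btbd9 41.9%. On log2(TPM + 1) these shares were 91.4% and 26.2%. By that measure Btbd9 did not vary more among strains than most genes.

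Neighbours in the order of strains mostly lay close together, which sorting 114 strains makes likely for any gene. The counts below therefore do not say how well strains can be told apart. A step of 1 rank is not read as a difference in level. Of the 113 neighbouring pairs in the order of Glo1 levels, 4 differed by more than the between-mouse SD of 0.14, and of those in the order of Btbd9, 1 did. That pair was NZB/BlNJ at 9.36 CPM and NZW/LacJ at 13.6 CPM, the 2 lowest strains. The 2 mice of 129X1/SvJ gave 253 and 313 CPM for Glo1, and 14.9 and 17.4 CPM for Btbd9.

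Family medians of Glo1 were 261 CPM in BXD (124 to 753), 232 in AXB/BXA (157 to 679), 206 in BXH (130 to 380), 267 in CXB (257 to 369) and 219 in the other inbred strains (85.7 to 527.1). For Btbd9 they were 19.7, 18.6, 19.3, 19.9 and 17.8 CPM in the same order. The ranges overlapped for every pair of families. By edgeR, BXD against AXB/BXA gave a Glo1 difference of -0.15 with a 95% interval of -0.45 to 0.16 (adjusted p = 0.604), where 11.6% of genes were called. The Glo1 difference from BXD was 0.11 for CXB (adjusted p = 0.940), -0.26 for BXH (adjusted p = 0.883, and -0.60 to -0.06 when 1 BXH strain was left out) and -0.14 for the other inbred strains (adjusted p = 0.534), with 0.427%, 0.771% and 19% of genes called. No family difference was called for Btbd9, which gave values between -0.09 and 0.0023 in those 4 comparisons. The intervals leave room for moderate differences between families in either direction.

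**Figure D2:**
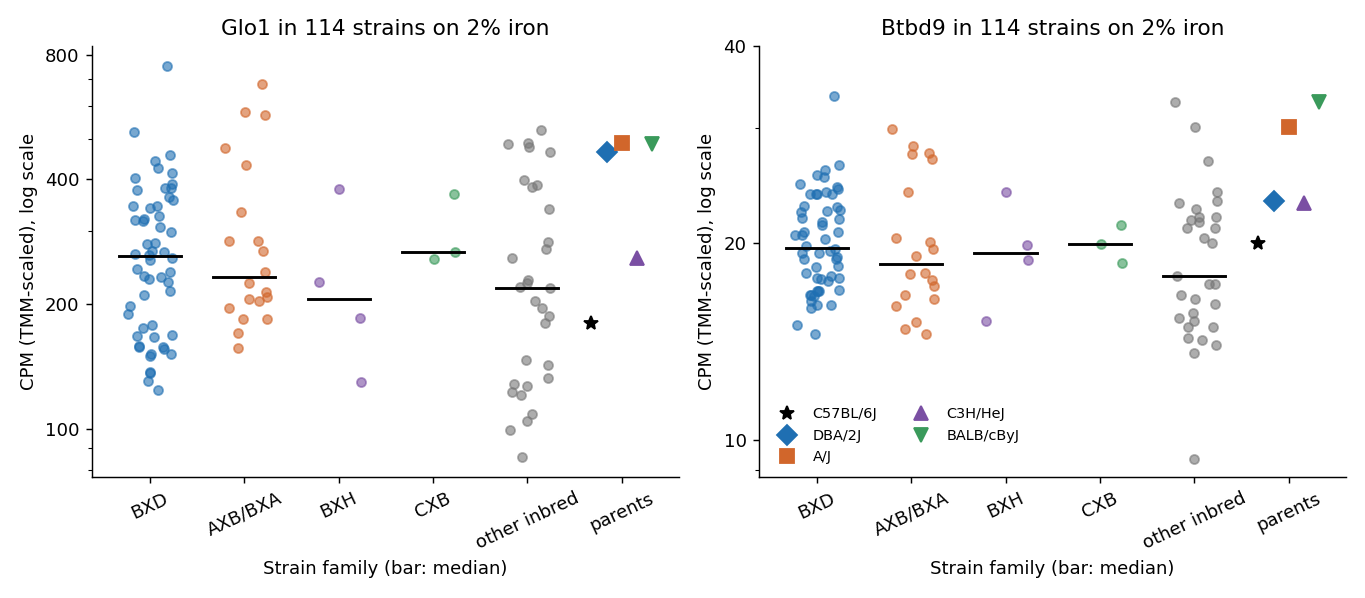
Glo1 and Btbd9 levels in CPM (logarithmic vertical axes) of each strain by family, with 1 point per strain, the median as a line and the parental strains, which are also among the other inbred strains, repeated at the right. Glo1 spans 85.7 to 753 CPM and Btbd9 9.36 to 33.5 CPM, and the families overlap for both genes.

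The parents of the recombinant families differed in Glo1. The C57BL/6J mouse had 181 CPM, DBA/2J 465 CPM, A/J 489.1 CPM, BALB/cByJ 486 CPM and C3H/HeJ 259 CPM, so the other parent was 2.57, 2.70, 2.69 and 1.43 times C57BL/6J in turn. Btbd9 was also lowest in C57BL/6J among these 5 strains, with 20.0 CPM in C57BL/6J, 23.04 in C3H/HeJ, 23.1 in DBA/2J, 30.1 in A/J and 32.9 in BALB/cByJ. Each parent was 1 mouse, so these ratios have no error of their own and were not tested. Substrains could differ as well: BALB/cJ had 109 CPM of Glo1 and 21.9 of Btbd9, beside 486 and 32.9 CPM in BALB/cByJ. C57BLKS/J, another of the inbred strains, had 478 and 22.6 CPM.

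On the CPM scale, most recombinant strains fell on the C57BL/6J side for both genes. Among the 56 BXD strains, 22 were nearer to DBA/2J than to C57BL/6J for Glo1 on the log2 scale, and 20 for Btbd9, a count that was 31 on log2(TPM + 1). Both genes gave the same nearer parent in 48 of the 56. For Btbd9 the parents, 1 mouse each, stood at 20.0 and 23.1 CPM, a ratio of 1.16. The nearer parent by Btbd9 is therefore loosely set. How often unrelated genes would give the same nearer parent was not computed. For Glo1, 38 BXD strains lay between the parents, 16 below both and 2 above both, whereas for Btbd9 only 14 lay between, 29 below both and 13 above. In AXB/BXA, 6 of 20 strains were nearer to A/J for Glo1 and 5 for Btbd9, with the same parent by both genes in 19. The genotype of each strain at the locus was not used here.

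Neither gene fell into 2 separate levels by the rule applied, which asked for an Ashman separation D above 3 and a gain above 10 in the Bayesian information criterion (BIC) for a mixture of 2 normal distributions over 1, with at least 3 strains in the smaller. Glo1 gave D = 2.09 and a gain of -11.2 over all strains, and Btbd9 gave 5.26 and -7.95, the latter with 1 strain in the smaller component. Within families, Glo1 came nearest in AXB/BXA (D = 4.87, gain 1.72), where 15 strains reached at most 333 CPM and the other 5 started at 434 CPM. By the same rule, 8.74% of genes split over all strains, 6.54% over BXD, 4.82% over AXB/BXA and 4.98% over the other inbred strains. The rule thus found no separate classes of strains by the RNA level of either gene, whatever the copy number of the locus in each.

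The pseudogene did divide the strains. Gm13443 held 0 to 2.63% of the summed Glo1 and Gm13443 counts in 53 strains, 20 of them at 0 counts, and 7.73 to 17.3% in the other 61, with a median of 12.3% and no strain between. The Gm13443 level met the rule for separate levels over all strains (D = 4.06, gain 79.4), within BXD (4.36 and 57.5), within AXB/BXA (5.17 and 14.5) and within the other inbred strains (3.73 and 23.1). BXD70/RwwJ bounded the lower level at 2.63%, and BXD21/TyJ the upper at 7.73%. The parents stood on opposite sides, with 1.76% in C57BL/6J and 9.65% in DBA/2J, 13.2% in A/J, 14.2% in BALB/cByJ and 14.7% in C3H/HeJ. Lower and upper strains numbered 30 and 26 in BXD, 13 and 7 in AXB/BXA, 2 and 2 in BXH, 2 and 1 in CXB, and 6 and 25 among the other inbred strains. The 2 mice of 129X1/SvJ had 0 and 1.48%.

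**Figure D3:**
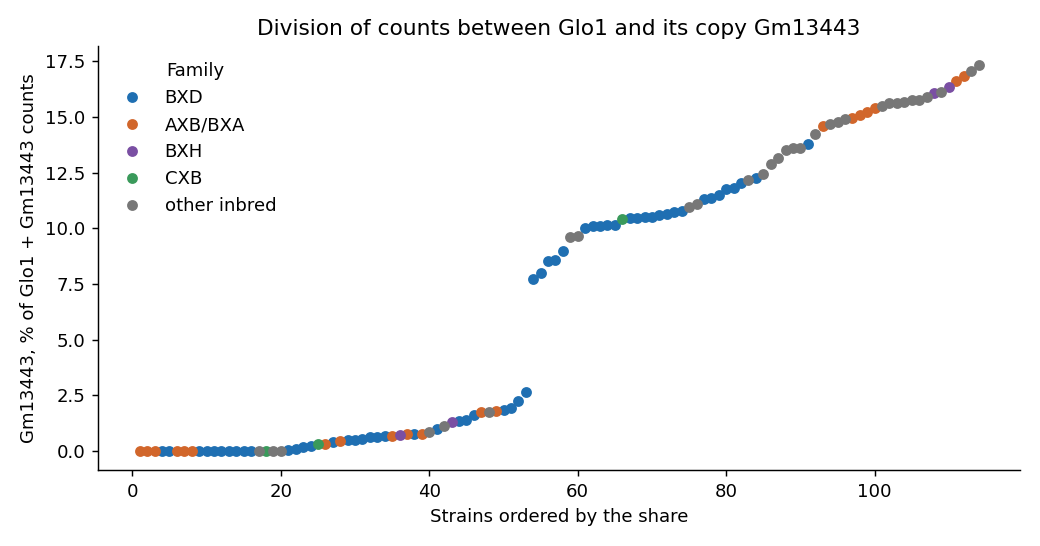
Share of Gm13443 in the summed Glo1 and Gm13443 counts of each strain (vertical axis, percent), with 1 point per strain, strains in order of the share along the horizontal axis and colour by family. The 53 strains of the lower level reach at most 2.63% and the 61 strains of the upper level start at 7.73%.

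The nearer parent by the Gm13443 share and by the Glo1 level was the same in 50 of 56 BXD strains and 19 of 20 AXB/BXA strains. In 5 BXD strains the share was nearer to DBA/2J and the Glo1 level to C57BL/6J, and in 1 the reverse held. The share and the Btbd9 level gave the same parent in 50 of 56 and 18 of 20 strains. In BXD the nearer parent by Btbd9 is loosely set, as said above. Gm13443 is annotated on another chromosome than Glo1, but the files do not say from which of the 2 genes the reads assigned to Gm13443 came. When the counts of both were summed, levels ran from 100.4 to 823 CPM, an 8.20-fold span, and did not split by the rule over all strains, BXD, AXB/BXA or the other inbred strains (D = 2.70 and gain -3.82 over all strains). The summed level kept 22 of 56 BXD strains nearer to DBA/2J and put 7 of 20 AXB/BXA strains nearer to A/J. The ratio of the spread between strains to that between mice was 4.85 for the sum.

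Strains with more Glo1 RNA also had more Btbd9 RNA. Over all 114 strains the log2 levels had Pearson's r = 0.715 and Spearman's rho = 0.682. Within families r was 0.660 in the 56 BXD strains (rho 0.607), 0.919 in the 20 AXB/BXA strains (rho 0.871) and 0.679 in the 31 other inbred strains (rho 0.637). For r, the two-sided permutation test over 100000 shuffles gave p = 1e-05, the smallest the permutations can give, in the first 3 and 2e-05 in the last, and the 4 values adjusted together were at most 2e-05. Leaving out the 2 strains farthest from the median of Glo1 gave r = 0.688, 0.625, 0.910 and 0.639 in the same order. On log2(TPM + 1), r was 0.682, 0.705, 0.944 and 0.487, the last with a permutation p of 0.00556. Recombinant strains of 1 family share parents and long stretches of chromosome, so strains are not fully independent. With the Gm13443 counts added to Glo1, r was 0.746, 0.690, 0.929 and 0.725.

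Within the 2 levels of Gm13443, r took different values. The levels were set after seeing the data, from a share that includes the Glo1 counts. The values within them are therefore a description and no independent check of the relation. In the 53 strains of the lower level r was 0.206 (rho 0.0175, permutation p = 0.140), and in the 61 of the upper level 0.761 (rho 0.689, p = 1e-05, the smallest possible). In BXD, the lower 30 strains gave r = -0.0461 (permutation p = 0.807). The upper 26 gave r = 0.451 (permutation p = 0.0240, adjusted 0.0411 over 12 relations), which rested on 2 strains, since r was 0.0505 without the 2 farthest from the median of Glo1. In AXB/BXA, r was 0.554 in the lower 13 strains (permutation p = 0.0502, adjusted 0.0753), with rho 0.632 (adjusted p = 0.0416) and r = 0.647 without the 2 farthest strains, and r was 0.762 in the upper 7 (exact permutation p = 0.0663, adjusted 0.0884). Among the other inbred strains, the lower 6 gave r = 0.665 (exact permutation p = 0.183) and the upper 25 gave 0.748 (permutation p = 3e-05). Without the 2 strains farthest from the median of Glo1, that last value was 0.697. The difference between the levels was not tested.

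**Figure D4:**
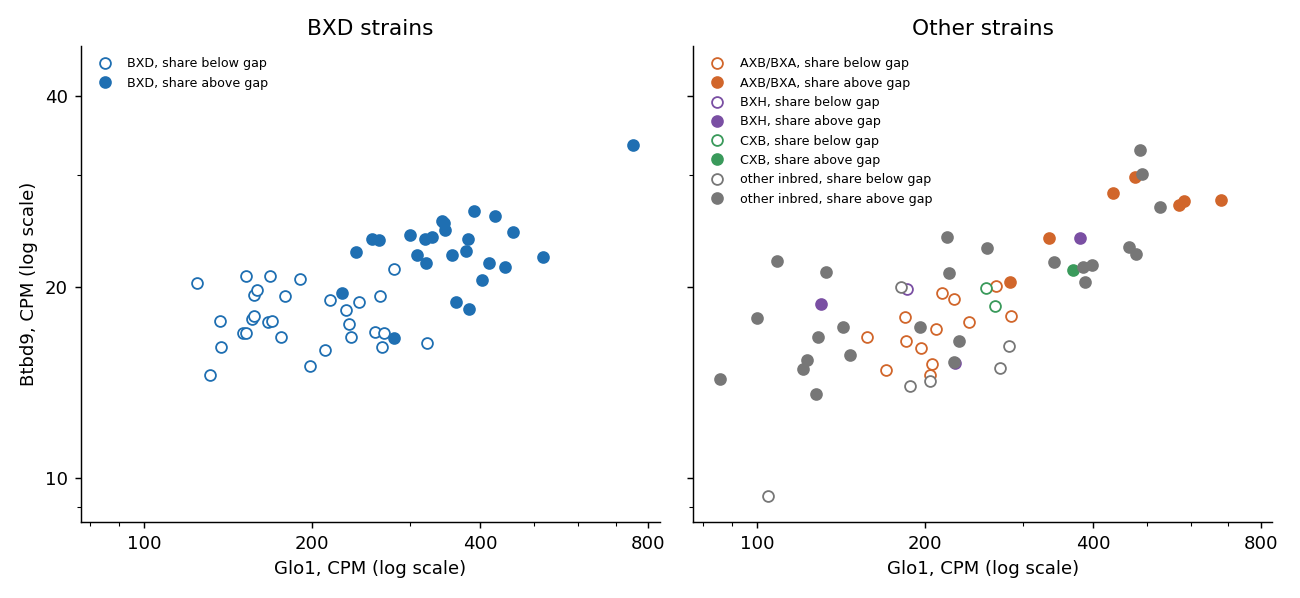
Btbd9 level against Glo1 level in CPM on logarithmic axes, with 1 point per strain, BXD strains in one panel and all others in the other, filled where the Gm13443 share lies in the upper level (7.73% or more) and open in the lower level (2.63% or less). The relation has r = 0.660 in BXD, 0.919 in AXB/BXA and 0.679 in the other inbred strains.

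By likeness over the 114 strains, each member had the other among its nearest genes. The gene most like Glo1 was Gm13443 (rho 0.703), followed by Btbd9 (0.682), Msrb1 (0.646), Fahd1 (0.615) and Cog4 (0.603). Reads of Gm13443 and Glo1 can be counted under each other. The rho of Gm13443 to Glo1, and to Btbd9 below, is therefore not that of a separately measured gene. Msrb1, a methionine sulfoxide reductase gene, gave rho 0.625 in BXD but -0.07 in AXB/BXA, whereas Gm13443 gave 0.807 and 0.862. Fahd1 and Cog4 gave 0.0346 and -0.0150 in AXB/BXA, where Btbd9 gave 0.871. In the other inbred strains Msrb1, Cog4 and Fahd1 gave 0.888, 0.857 and 0.839, above the 0.637 of Btbd9. Those most unlike Glo1 were Hmga1 (-0.61), Tfrc (-0.55), Uba2 (-0.55), Heg1 (-0.54) and Lpl (-0.54). In AXB/BXA the transferrin receptor gene Tfrc gave -0.23, the lipoprotein lipase gene Lpl 0.0466 and Heg1 0.167, so those relations were weak or of the other sign there. These are descriptions over strains that share ancestry and diet.

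The genes most like Btbd9 were Gm13443 (rho 0.725), Glo1 (0.682), H2-K2 (0.567), Anks1 (0.567) and H2-Q2 (0.550), and all except Gm13443 lie on chromosome 17. Among those most unlike it were Hmga1 (-0.66), Ppil1 (-0.52), Rps18 (-0.48) and Slc4a1 (-0.47), the last of which encodes the anion exchanger of red cells. Of the 50 genes most like Btbd9, 27 lie on chromosome 17, and of the 50 most like Glo1, 5 do, where 5.08% of all 15694 genes compared lie on that chromosome. Hmga1 was lowest for both genes and gave rho -0.79 to Btbd9 in BXD. Its copy Hmga1b, listed on another chromosome, gave 0.730 to Btbd9 in BXD and 0.537 over all strains, opposite in sign to Hmga1. Whether reads of Hmga1 and Hmga1b were counted under each other was not tested. Neither rho is therefore read as that of a separately measured gene.

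**Figure D5:**
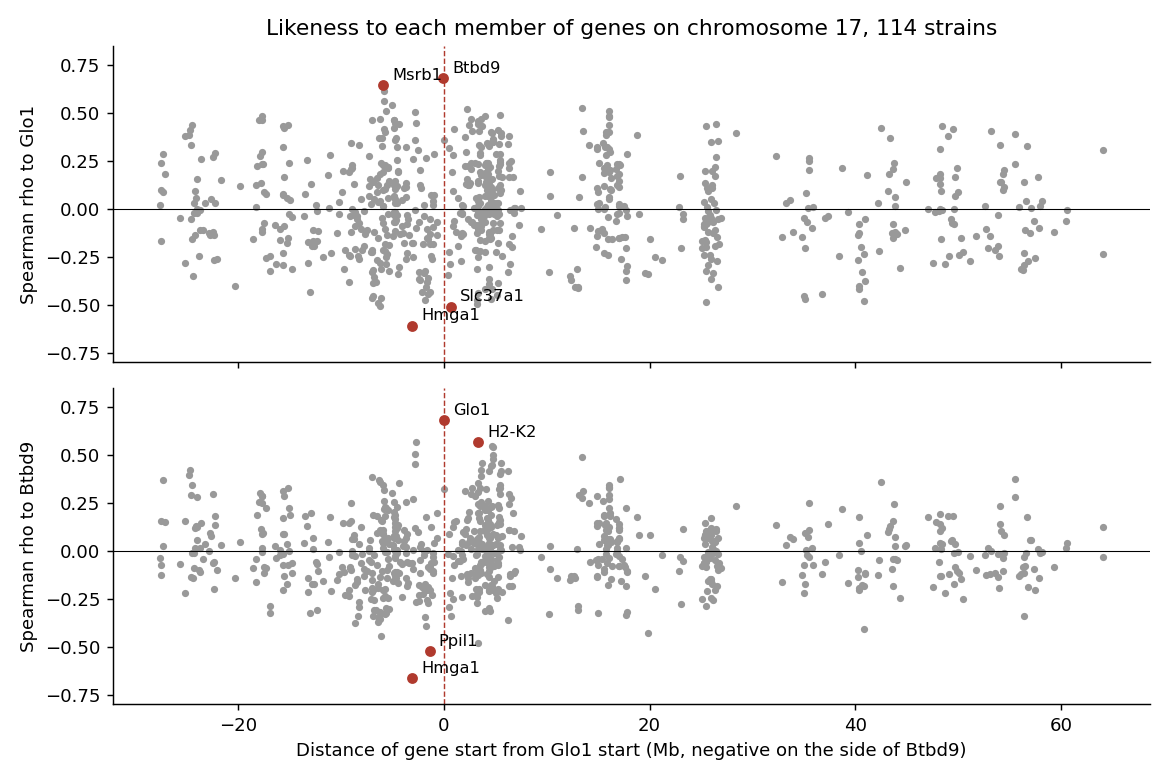
Spearman's rho of each gene on chromosome 17 with Glo1 and with Btbd9 over 114 strains (vertical axes) against distance from the Glo1 start in megabases (horizontal axis, negative on the side of Btbd9). The pair stands at rho 0.682 at the locus, and Hmga1 has the lowest values, -0.61 and -0.66. Sharing of Hmga1 reads with its copy Hmga1b was not tested.

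Over all strains, no other gene tested around the locus reached the rho between the pair. Within 1 Mb of the Glo1 start, 69 genes are annotated, 25 are listed in the strain table and 19 passed the filter, the pair included. Beside Glo1, Dnah8, an axonemal dynein gene that overlaps it, gave rho 0.361 at a median of 0.0436 TPM, too low for a firm reading. Cbs, which encodes cystathionine beta-synthase, gave 0.418, and Slc37a1, a sugar phosphate transporter gene, gave -0.51. Zfand3, beyond Btbd9, gave -0.14, and rho to Btbd9 was -0.34 for Slc37a1 and 0.324 for Dnah8. Single families differed: the trefoil factor gene Tff1 gave 0.803 to Glo1 in the other inbred strains, where the pair gave 0.637, and Tff3 gave -0.64 to Btbd9 in BXD. On 2% iron against 50 ppm, 14 of the neighbours other than the pair were tested, and 1 rose and 2 fell, a share near the 15.7% of all genes called. The lipid exporter gene Abcg1 rose by 0.96 (adjusted p = 0.00551 by edgeR), the phosphodiesterase gene Pde9a fell by 0.69 (adjusted p = 0.0161) and the complex I gene Ndufv3 fell by 0.36 (adjusted p = 0.0424). The calls of Pde9a and Ndufv3 were lost when any 1 of 4 mice was left out, mice 1 and 2 on 50 ppm and mice 1 and 3 on 2% iron, with adjusted p of up to 0.0649 and 0.185. Ndufv3 was also lost without mouse 2 on 2% iron or mouse 1 on chow. Between BXD and AXB/BXA, 1 of 15 neighbours tested was called by edgeR, beside 11.6% of all genes. It was Slc37a1, which was 0.74 higher in BXD (adjusted p = 0.0280).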

How the data were processed

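Liver RNA-seq values were used as deposited by the authors: estimated counts and TPM per gene, in 1 pair of tables for the diet study and 1 for the strain panel. The submitters' processing notes name kallisto 0.46 and mm10, with no further settings. The tests were planned for counts; since the deposited values are expected counts, they were rounded to whole numbers. Genes passed edgeR's filterByExpr, libraries were scaled by TMM, and edgeR 4.0.16 quasi-likelihood fits (R 4.3.3) covered all genes, 1 fit of the 5 diets and separate fits for families. Strain levels are log2 CPM with a prior count of 2, with 129X1/SvJ averaged. Relations used permutation tests (scipy 1.17.1). Scripts were tested on simulated data. Named genes were the members, every gene within 1 Mb, the fixed lists and the 5 genes most and least like each member by rho. Some sequences and 1 gene that the rule names are not reported here. The members and lists were chosen with earlier results of these data known. Alternatives were DESeq2 1.42.0, limma 3.58.1 on log2(TPM + 1) or log2(TPM + 0.1), other scalings and filters, and leaving out libraries. The Gm13443 alternatives, and the division by its share, were chosen after seeing the data. Coordinates come from GENCODE M21 on GRCm38, read as the build mm10.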

Additional observations from a re-analysis of the deposited data

How the results depend on the processing

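Glo1 was called lower on 2% iron than on 50 ppm in 23 of 23 alternatives (log2 change -0.74 to -0.56), and with cellulose against 50 ppm in 23 of 23. Against 500 ppm and chow it was called in 22 of 23 each, the exceptions being limma on log2(TPM + 0.1), with -0.52 (adjusted p = 0.0597) and -0.45 (adjusted p = 0.0591). Btbd9 was called in 0 of the 22 alternatives of any diet comparison by any tool run, and small changes turned sign: 2% iron against chow gave 0.0163 and 0.0214 with limma on log2(TPM + 1) and log2(TPM + 0.1), chow against 50 ppm -0.043 and -0.061, and BXD against AXB/BXA -0.0046 without a filter and -0.043 with 1 substrain each. Leaving out 1 library at a time gave Glo1 ranges of -0.18 to 0.013 for 500 against 50 ppm, -0.17 to 0.0019 for chow against 50 ppm and -0.064 to 0.21 for CXB against BXD. For Btbd9 it gave -0.19 to 0.028 (2% iron against 50 ppm), -0.21 to 0.0231 (2% iron against chow), -0.058 to 0.053 (chow against 50 ppm), -0.0133 to 0.21 (cellulose against 2% iron), -0.071 to 0.084 (cellulose against 50 ppm), -0.070 to 0.026 (CXB against BXD) and -0.17 to 0.050 (BXH against BXD).

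On TPM, 31 BXD strains were nearer to DBA/2J for Btbd9 in place of 20, and 1 BXH strain nearer to C3H/HeJ for Glo1 in place of 2, as also with Gm13443 counts added (1). Within Gm13443 levels, r moved to 0.206, -0.0461, 0.554 and 0.665 in the lower level (all strains, BXD, AXB/BXA, other inbred) and to 0.762 in the upper level of AXB/BXA. Of the 10 genes taken by likeness, 6 for Glo1 and 5 for Btbd9 were shared on TPM. The ratio of spreads was 4.09 for Glo1 and 1.72 for Btbd9 over BXD alone, and 2.39 for Btbd9 on TPM. Without BXD65/RwwJ, the relation in BXD was 0.6645 and no call changed. Genes called over the whole table fell under limma, from 2127 to 1052 or 831 for 2% iron against 50 ppm, from 1538 to 755 or 605 against 500 ppm and from 3087 to 1771 or 1617 against chow. Leaving out 1 library gave 1003 to 2333 for 2% iron against 50 ppm and 788 to 2204 against 500 ppm, lowest without mouse 1 on 50 ppm and mouse 1 on 500 ppm. The cause was not tested. No paired analysis was possible because the labels carry no replicate numbers. With 3 mice a group and 1 mouse a strain, small differences in Btbd9, at a median of 19.5 CPM, cannot be resolved.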
